A study of Mus musculus with 2 samples.

Results

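The vascular endothelial growth factor (VEGF) ligands Vegfa, Vegfb, Vegfc and Pgf and the VEGF receptors Kdr, Flt1 and Flt4 were followed across the cells of the newborn mouse eye. The members were taken by gene symbol, 7 of the 31053 genes in the count tables, with 4 ligands and 3 receptors, and each matched 1 row. Single-cell RNA-seq with 10x 3′ tags was carried out on eye cups at postnatal day 0 (P0), from which the cornea, lens and optic nerve had been removed. The control library came from Myrf fl/fl eyes and the mutant library from Rx>cre Myrf fl/fl eyes. Both genotypes carry the floxed alleles of Myrf, a transcription factor gene expressed in the retinal pigment epithelium (RPE), and only the mutant carries the cre. The cre is driven by Rx, a gene of the early eye field, from which the RPE and the neural retina both arise. Each genotype is 1 library made from 3 pooled eye cups, so no difference between the genotypes has a replicate check, and none is tested here.

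VEGF-A, the product of Vegfa, is secreted by tissues that need blood supply and acts on endothelial cells mainly through VEGFR2, the product of Kdr. VEGFR1, the product of Flt1, binds VEGF-A, VEGF-B and placental growth factor (PlGF, from Pgf) and can act as a decoy, while VEGFR3, the product of Flt4, binds VEGF-C and serves lymphatic and sprouting vessels. In the eye, RPE cells and retinal astrocytes are known sources of VEGF-A, the RPE supplying the choroidal vessels behind it and the astrocytes guiding the vessels that spread over the newborn retina. The 3′ tags count transcripts of a gene together and do not separate the VEGF-A isoforms or the soluble form of VEGFR1.

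The members are protein-coding genes on 6 chromosomes, and no other annotated gene overlaps any of them (GENCODE M21, GRCm38). Vegfa lies at chr17:46016993-46032369, Vegfb at chr19:6982473-6987651, Vegfc at chr8:54077606-54187096 and Pgf at chr12:85166635-85177790. The receptor genes are Kdr at chr5:75932827-75978458, Flt1 at chr5:147561604-147726011 and Flt4 at chr11:49609263-49652739. The promoters of Kdr and Flt1 are shown because both genes had their highest level in endothelial-like cells while only Kdr was also abundant in retinal progenitor-like cells. The sequences are the 250 bases before the RefSeq start of each gene (GRCm38.p6, minus strand, chr5:75978456-75978705 for Kdr and chr5:147726012-147726261 for Flt1), written 5′ to 3′ in the direction of transcription. Capitals mark GGAA, the core recognised by ETS factors, and its reverse complement TTCC.
Kdr: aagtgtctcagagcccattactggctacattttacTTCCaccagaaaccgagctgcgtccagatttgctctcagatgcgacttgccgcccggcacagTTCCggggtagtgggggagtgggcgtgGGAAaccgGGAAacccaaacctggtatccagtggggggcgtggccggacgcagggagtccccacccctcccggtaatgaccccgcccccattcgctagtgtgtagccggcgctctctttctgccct
Flt1: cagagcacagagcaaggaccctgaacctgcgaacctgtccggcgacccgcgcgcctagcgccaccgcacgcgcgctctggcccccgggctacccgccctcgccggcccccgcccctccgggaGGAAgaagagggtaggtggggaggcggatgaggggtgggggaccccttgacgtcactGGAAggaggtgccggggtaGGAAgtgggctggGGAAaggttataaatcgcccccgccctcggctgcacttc
Each window held 4 such cores, all of them GGAA in Flt1 and 2 in each orientation in Kdr. The 4-letter core is common: searched on both strands, it was present in 93.4% of 32851 windows of the same length, so its presence does not set these promoters apart. The letters ACGTG and GCGTG, the core of the response element of the hypoxia-inducible factors (HIF), were searched on both strands as well. Neither was found in the window before Vegfa, GCGTG was found 2 times before Kdr and Vegfb and 1 time before Flt1 and Pgf, and ACGTG, present in 16.6% of all windows against 28.2% for GCGTG, was found before none of the 7 members. These matches describe the letters of short windows and say nothing of binding.

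The control library held 14305 cell barcodes and 79017429 unique molecular identifiers (UMIs, each a captured transcript), and the mutant library 12222 and 76272867. The libraries shared 59 barcode sequences. After filters on genes, mitochondrial share and called doublets, 12449 and 10797 cells remained, with median depths of 4274 and 4820 UMIs. Clustering without the members gave 35 clusters, of which those with enough fixed markers were named as a cell class with the ending "-like". In RPE-like cells the 9 RPE markers summed to 26901 and 17531 counts per 1000000 UMIs (CPM) in the control and mutant, and in endothelial-like cells the 11 endothelial markers summed to 11728 and 12705. No cluster was named as ganglion cells, horizontal cells, ciliary margin or lymphatic endothelium. The RPE-like cluster had 7 of 9 RPE and 7 of 9 melanocyte markers (both cell types make pigment), and its 10 leading genes held 2 RPE markers and 1 melanocyte marker. The melanocyte markers summed to 23329 and 18076 CPM in it, in the mutant above the RPE markers, but both lists hold Tyrp1, Pmel and Dct. The sums thus count some of the same transcripts and do not tell the cell types apart. The astrocyte-like cluster had 4 of 7 astrocyte markers and also 4 of 7 ciliary margin markers, and the naming rule settled both ties by sorting the names. Its 10 leading genes held 3 astrocyte markers (Pax2, Gfap and S100b) and no ciliary margin marker. In all 3138 control and 2523 mutant cells stayed unnamed. The libraries differed in the sex of their cells: among cells with reads from Xist or Y-linked genes but not both, 12.2% were Xist-only in the control library against 83.5% in the mutant one, so genotype and sex are largely confounded. The Xist-only share also differed between classes, from 3.51% in progenitor-like to 24.8% in endothelial-like and 37.8% in RPE-like cells of the control, and was 83.8%, 74.0% and 69.0% in those of the mutant. Levels are given as CPM, the UMIs of a gene per 1000000 UMIs of the class in that library. Intervals in brackets are exact 95% intervals for counting error only, and log2 ratios are mutant over control. Myrf itself had 226 CPM in the RPE-like cells of the control against 26.1 in those of the mutant, although 3′ tags need not lie in the deleted part of the gene.

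Vegfa, the ligand of VEGFR1 and VEGFR2, had its highest level in the small class of astrocyte-like cells, followed by RPE-like cells and then retinal progenitor-like cells. Astrocyte-like cells held 514 [448, 588] Vegfa CPM in the control (31 cells) and 230 [194, 271] in the mutant (33 cells). RPE-like cells held 226 [210, 243] in the control (516 cells) and 187 [170, 206] in the mutant (206 cells). Retinal progenitor-like cells held 85.4 [81.0, 90.0] and 86.7 [82.7, 90.8]. In the control these intervals did not touch, whereas in the mutant the intervals of astrocyte-like and RPE-like cells overlapped at their edges. The Vegfa level of RPE-like cells was 2.64-fold [2.42, 2.89] that of progenitor-like cells in the control library against 2.16-fold [1.94, 2.40] in the mutant one. Over the alternatives the control value ran from 1.76-fold at a mitochondrial limit of 5% to 6.74-fold in Xist-only cells. The astrocyte-like level was 6.02-fold and 2.65-fold that of progenitor-like cells. Amacrine-like (62.7 and 58.3), neurogenic-like (55.6 and 66.3) and photoreceptor-like cells (51.1 and 62.7) formed the next step, and their intervals overlapped within each library. Vessel and connective tissue cells lay lower, with 36.7 and 31.4 in mesenchyme-like and 22.7 and 15.2 in endothelial-like cells. Red blood-like cells, which should lack Vegfa, had 9.69 and 8.82, and melanocyte-like cells, which share the pigment genes of the RPE, had 10.7 and 9.09. The plot of member levels by cell class shows these orders for all 7 genes.

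**Figure D1:**
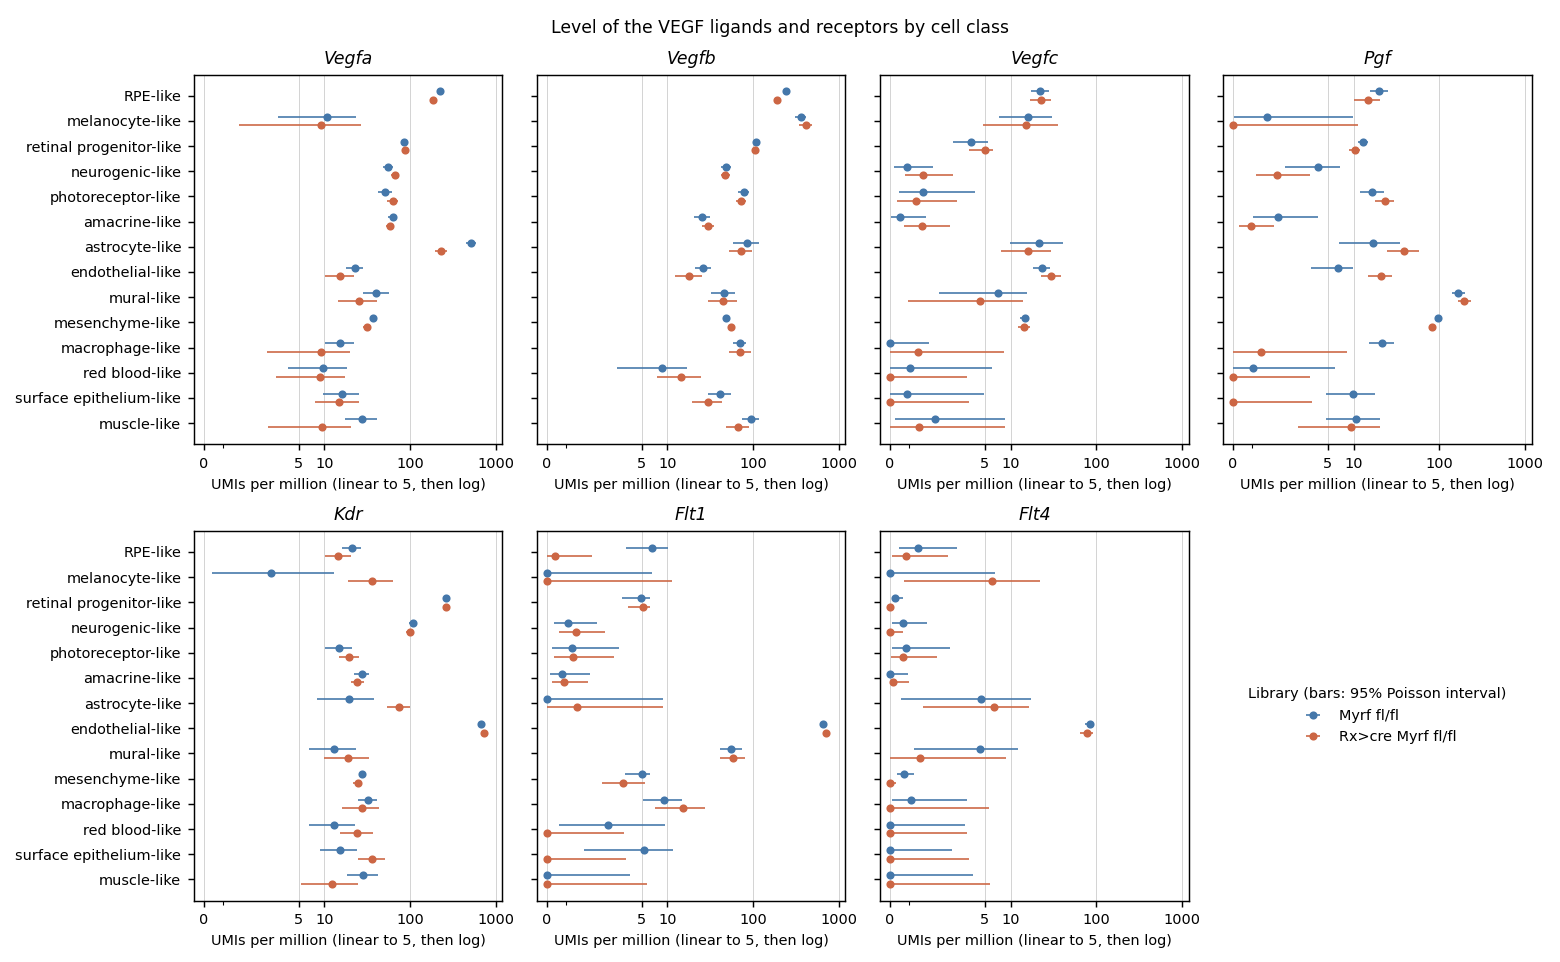
Level of each member in 14 cell classes, as CPM of the class (linear to 5, then logarithmic). Each point is 1 library, with its exact 95% Poisson interval as a bar, the Myrf fl/fl library above the mutant one. Vegfa is highest in astrocyte-like and RPE-like cells, Flt1 and Flt4 in endothelial-like cells, Kdr in endothelial-like and retinal progenitor-like cells, and Pgf in mural-like and mesenchyme-like cells.

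In shares of cells, Vegfa had a UMI in 39.3% of the RPE-like control cells and in 56.8% of the mutant ones, whose median depths were 2464 and 9504 UMIs. When each cell was thinned to 1000 UMIs, leaving out shallower cells, the shares were 15.6% (64 of 411 cells) and 15.7% (28 of 178). The thinned shares of red blood-like cells, at median depths of 3530 and 11592 UMIs before thinning, were 1.77% and 3.57%, far below those of RPE-like cells. The RPE-like signal was spread over many cells, as no cell held more than 15 Vegfa UMIs in the control or 16 in the mutant, and the 5 highest cells held 9.38% and 15.1% of the UMIs. Among astrocyte-like cells 27 of 31 and 27 of 33 had a Vegfa UMI, with a median of 5 UMIs a cell in the control library against 2 in the mutant one, although the mutant cells were deeper (17158 against 12462 UMIs). Thinned to 1000 UMIs, 35.5% (11 of 31) of control and 6.06% (2 of 33) of mutant astrocyte-like cells kept a Vegfa UMI. In this small class the 5 highest cells held 43.0% of the Vegfa UMIs in the control library against 53.1% in the mutant one.

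Because progenitor-like cells were so many, they were the largest single holder of Vegfa transcripts, with 31.8% of all Vegfa UMIs of kept cells in the control library against 42.3% in the mutant one. RPE-like cells held 16.9% and 10.4%, mesenchyme-like cells 14.7% and 7.92%, and astrocyte-like cells 4.84% and 3.38%. RPE-like cells were 4.14% of control and 1.91% of mutant kept cells, and their UMIs 4.8% and 3.64% of all UMIs. Over all kept cells the Vegfa level was 64.2 CPM in the control library against 65.9 in the mutant one.

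Between genotypes, the Vegfa log2 ratio was -0.27 [-0.44, -0.10] in RPE-like cells, 0.02 [-0.08, 0.12] in progenitor-like cells and -1.16 [-1.48, -0.85] in astrocyte-like cells. The progenitor-like ratio was 1.15 among Xist-only cells, -0.25 among Y-only cells and 1.49 in cells of at most 2000 UMIs. The control had 67 Xist-only progenitor-like cells against 2815 in the mutant. Progenitor-like cells under 2000 UMIs held 6 Vegfa UMIs in the control library against 24 in the mutant one. The RPE-like ratio was close to 0 when every cell counted equally (-0.03). RPE-like cells with over 5% mitochondrial UMIs had more Vegfa than those at or below that share in both libraries (266 against 154 in the control, 218 against 133 in the mutant). The mutant value was lower in each stratum, but at or below 5% the intervals overlapped ([132, 178] and [110, 160]). For the astrocyte-like cells the ratio without the highest cell of each library was -1.22. It was -0.70 among cells with Y-linked reads only, of which the mutant had 3, and -0.21 among Xist-only cells, of which the control had 1. The class was 3.85% Xist-only in the control library against 90.0% in the mutant one among sexed cells, and the part of sex in the difference was not tested. Other classes had smaller ratios whose intervals covered or came close to 0, such as 0.26 [0.02, 0.50] in neurogenic-like and -0.23 [-0.42, -0.03] in mesenchyme-like cells (1.02 in cells of at most 2000 UMIs and 0.10 in Xist-only cells), except muscle-like cells at -1.55 [-3.14, -0.22] on 23 and 6 UMIs.

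Among the retinal clusters, Vegfa was highest in the progenitor-like clusters 1 and 0, at 98.9 and 88.2 CPM in the control and 93.0 and 89.8 in the mutant. The third progenitor-like cluster, cluster 3, was lower, at 68.5 and 74.8. One of the amacrine-like clusters, cluster 15, had 86.7 in the control library against 63.3 in the mutant one. The lowest level among the clusters plotted with them was that of cluster 10, unnamed with at most 1 marker of any class and led by Rsph1 and the cell division genes Cdkn3 and Cdc20, at 25.2 and 19.0. Every retinal or unnamed cluster in the plot lay below RPE-like and astrocyte-like cells in both libraries.

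Vegfb, which codes for a ligand of VEGFR1 alone, was highest in pigmented cells. Melanocyte-like cells had 361 [313, 414] and 412 [346, 488] Vegfb CPM in the control and mutant (30 and 18 cells), and RPE-like cells 243 [227, 261] and 192 [175, 211]. Progenitor-like cells followed at 109 and 104. Next came muscle-like (93.7 and 66.6), astrocyte-like (84.1 and 72.4), photoreceptor-like (78.2 and 72.3) and macrophage-like cells (70.0 and 70.9), whose intervals overlapped each other. Endothelial-like cells were among the lowest, at 26.0 and 17.9, and stood above red blood-like cells (8.61 and 14.3) beyond the intervals in the control only. In melanocyte-like cells Vegfb was thus high where Vegfa was near the level of red blood-like cells, while RPE-like cells held both. The log2 ratio in RPE-like cells was -0.34 [-0.51, -0.17] from 804 and 450 UMIs, but its direction depended on the processing. It was 0.09 after thinning each cell to 1000 UMIs and 0.07 when every cell counted equally. In cells of at most 2000 UMIs it was 0.79, and where cells were chosen by marker gates it was 1.14. The gates leave out RPE cells that also had at least 3 UMIs of progenitor markers, which summed to 1323 and 1716 CPM in RPE-like cells. For Vegfa they gave no value, so the gated Vegfb ratio comes from a selected set of cells. In mesenchyme-like cells the ratio was 0.18 [0.03, 0.33].

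Vegfc, the ligand of VEGFR3, was a low transcript everywhere. It had its highest levels in endothelial-like cells (23.3 [18.4, 29.0] in the control library against 29.8 [22.5, 38.8] in the mutant one), RPE-like cells (22.1 [17.3, 27.8] and 22.7 [17.0, 29.6]) and astrocyte-like cells (21.6 and 16.1 on 9 and 10 UMIs), which did not differ beyond their intervals. Mesenchyme-like cells had lower CPM (14.7 and 14.3) but held 47.8% and 34.7% of all Vegfc UMIs, because the class was large. The neural retina was lower, with 4.26 and 5.09 in progenitor-like cells and at most 1.75 in photoreceptor-like, amacrine-like and neurogenic-like cells. Vegfc was thus a ligand for which endothelial-like and RPE-like cells stood at a like level. In endothelial-like cells the 78 control UMIs came from 50 of 421 cells and the 55 mutant UMIs from 21 of 164. The log2 ratio of Vegfc in this class turned from 0.36 to -2.18 after thinning to 1000 UMIs (10 of 375 cells against 1 of 155), -0.48 with marker gates, and -0.80 and -0.40 within Xist-only and Y-only cells.

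Pgf, which codes for PlGF, another ligand of VEGFR1, was a transcript of mural-like and mesenchyme-like cells. Mural-like cells, the pericytes and smooth muscle of vessels, had 168 [141, 198] Pgf CPM in the control library against 197 [164, 235] in the mutant one. Mesenchyme-like cells had 97.5 [92.9, 102] and 82.1 [76.8, 87.8], and they held 73.0% and 59.6% of all Pgf UMIs. The largest part of this came from 1 of the mesenchyme-like clusters, cluster 17, which was led by Col10a1, Alpl, Aldh1a2, Tcf21 and Foxf2. This cluster had 10 of 12 mesenchyme markers and 8 of 11 mural markers, none of either list among its 10 leading genes. Cluster 17 held 341 CPM in the control library against 358 in the mutant one, from 337 and 188 cells, and its 1295 control UMIs were 54.9% of all Pgf UMIs of that library. Its log2 ratio was 0.07 [-0.06, 0.20], whereas that of the whole mesenchyme-like class was -0.25 [-0.37, -0.13] and that of the class without cluster 17 was -0.79. The class value was 0.20 after thinning to 1000 UMIs. Cluster 22, led by Lypd1 and Hsd11b1, had 71.4 and 20.7 (107 and 23 UMIs), a log2 ratio of -1.78 [-2.50, -1.12]. The makeup of the class also differed, since cluster 14 of collagen-rich cells had 596 control cells and 26 mutant cells.

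Outside these classes Pgf was scarce, and in endothelial-like and macrophage-like cells few cells held its UMIs. Endothelial-like cells had 6.56 and 20.6 Pgf CPM, a log2 ratio of 1.65 [0.86, 2.48], from 22 UMIs in 8 of 421 control cells and 38 UMIs in 11 of 164 mutant cells. The 5 highest cells held 86.4% and 76.3% of these UMIs, and the ratio was 0.27 after thinning and 0.22 where cells were chosen by marker gates in place of clusters. Macrophage-like cells had 38 UMIs in the control library against 1 in the mutant one (21.5 and 1.51 CPM), a log2 ratio of -3.83 [-9.17, -1.26], and 5 control cells held 60.5% of the 38. Retinal progenitor-like cells had 13 and 10.3, from 213 UMIs in 193 cells and 212 UMIs in 201 cells, and photoreceptor-like cells 16.6 and 23.1. The stacked shares of each member's UMIs show how little of Pgf came from the neural retina beside Vegfa and Vegfb.

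**Figure D2:**
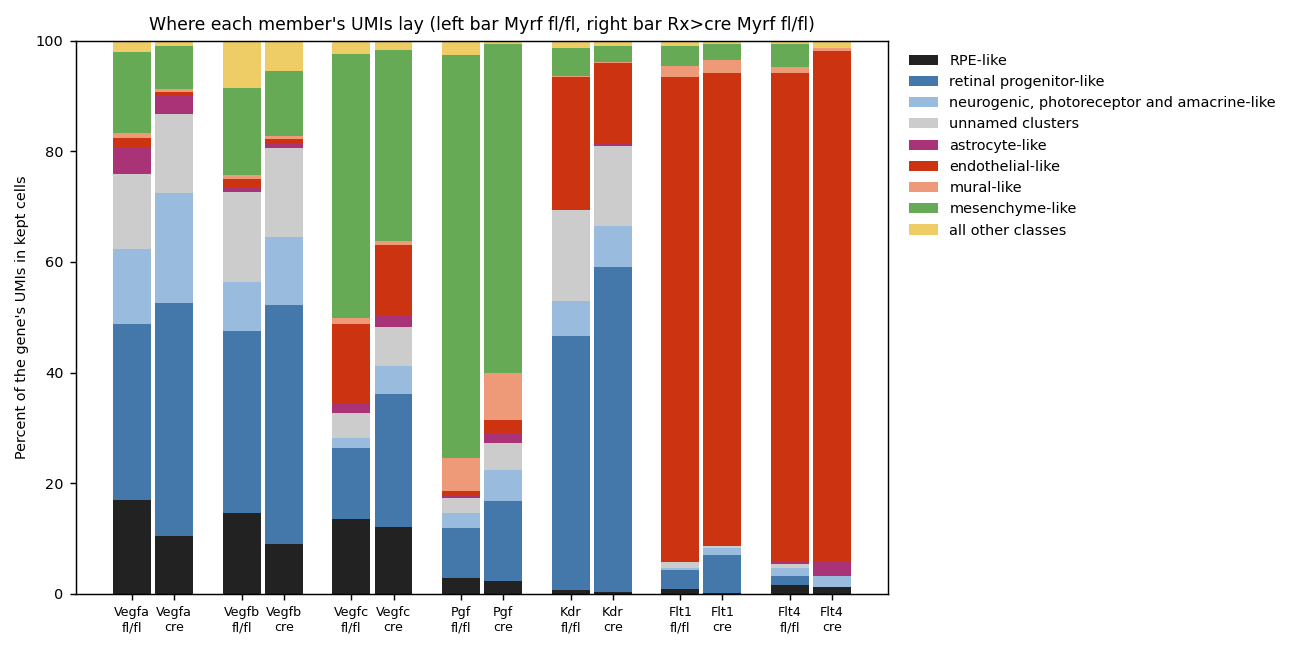
Share of each member's UMIs in kept cells (percent, vertical axis) that lay in each group of cell classes. The left bar of each pair is the Myrf fl/fl library and the right bar the Rx>cre Myrf fl/fl library. Progenitor-like cells held 31.8% and 42.3% of Vegfa, mesenchyme-like cells 73.0% and 59.6% of Pgf, and endothelial-like cells 87.8% and 85.4% of Flt1.

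Kdr, which codes for VEGFR2, the main signalling receptor for VEGF-A, had its highest level in endothelial-like cells, at 682 [654, 711] CPM in the control library against 724 [686, 764] in the mutant one. Retinal progenitor-like cells were next among named classes, at 266 [258, 274] and 263 [256, 270], from 4370 and 5424 UMIs. Endothelial-like cells thus had 2.57-fold and 2.75-fold the level of progenitor-like cells. Neurogenic-like cells had 107 and 98.7, amacrine-like cells 27.3 and 24.3, and photoreceptor-like cells 14.8 and 19.6. The progenitor-like level was 17.9-fold that of photoreceptor-like cells in the control library against 13.4-fold in the mutant one, and 2.48-fold and 2.66-fold that of neurogenic-like cells. RPE-like cells were low, at 20.9 and 14.5, which was not above red blood-like cells beyond the intervals (12.9 [6.68, 22.6] and 24.2 [15.2, 36.7]). RPE-like cells were thus high in Vegfa and low in Kdr, whereas progenitor-like cells carried both.

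The Kdr signal of progenitor-like cells was broad. A Kdr UMI was seen in 69.0% of control and 69.2% of mutant progenitor-like cells, and in 23.2% and 24.0% after thinning to 1000 UMIs, against 1.51% and 1.71% of thinned photoreceptor-like cells. The median depths were 4804 and 4920 UMIs for progenitor-like cells and 2911.5 and 3269.5 for photoreceptor-like cells. No progenitor-like cell had more than 10 Kdr UMIs in the control or 12 in the mutant, and the 5 highest cells held 1.10% and 0.977% of them. The summed level of the 11 endothelial markers in progenitor-like cells was 55.8 and 45.9 CPM, under that of Kdr alone. Progenitor-like cells held 45.8% and 58.6% of all Kdr UMIs, and endothelial-like cells 24.0% and 14.4%.

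Kdr also varied between the clusters of retinal cells. The progenitor-like clusters 0, 1 and 3 had 297, 272 and 216 CPM in the control and 291, 268 and 213 in the mutant. Cluster 2, which was unnamed and led by Fam183b, Ppp1r17 and Dll1, had 312 and 289. Cluster 10 had 168 and 148. The neurogenic-like clusters 5 and 11, led by genes such as Olig2, Atoh7 and Neurog2, had 131 and 84.7 in the control and 117 and 81.9 in the mutant. The amacrine-like and photoreceptor-like clusters had between 14.2 and 30.7 in the control. Among the progenitor-like and neurogenic-like clusters the order was 0, 1, 3, 5 and 11 in both libraries. Vegfa had another order, with cluster 11 above cluster 5 in both libraries, as the plot of retinal clusters shows.

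**Figure D3:**
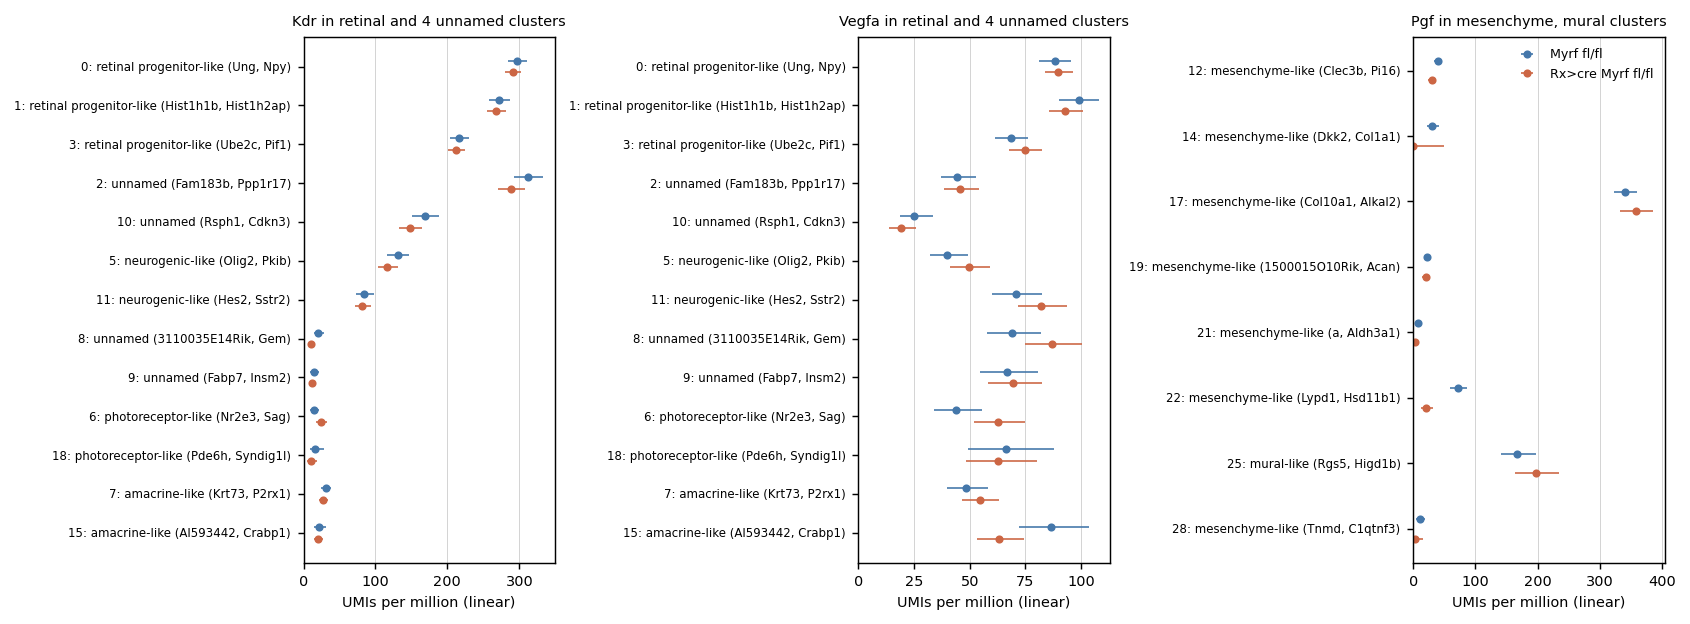
Levels of Kdr and Vegfa in retinal and 4 unnamed clusters and of Pgf in mesenchyme-like and mural-like clusters, as CPM on linear axes. Each point is 1 library with its exact 95% Poisson interval, and each cluster is given with its class and 2 leading genes. In the control, Kdr goes from 312 in the unnamed cluster 2 and 297 in progenitor-like cluster 0 to 14.2 in photoreceptor-like cluster 6, Vegfa from 98.9 in cluster 1 to 25.2 in cluster 10, and Pgf is highest in cluster 17.

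In endothelial-like cells the Kdr log2 ratio was 0.09 [-0.01, 0.18], and in progenitor-like cells -0.02 [-0.07, 0.04]. The first moved to 0.48 after thinning and to -0.72 where cells were chosen by marker gates, and in cells of at most 2000 UMIs the values were 0.80 and 0.83. A Kdr UMI was seen in 72.2% of control and 89.0% of mutant endothelial-like cells, and in 40.5% and 52.9% after thinning. The median was 2 Kdr UMIs per endothelial-like cell in the control library against 6 in the mutant one, at median depths of 4792 and 9129.5 UMIs. A single control cell held 114 Kdr UMIs and the highest mutant cell 61. Astrocyte-like cells had 8 Kdr UMIs in the control library against 46 in the mutant one, a log2 ratio of 1.94 [0.85, 3.24]. Of the 46 UMIs 26 lay in 1 cell, and the ratio without the highest cell of each library was 1.89.

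Flt1, which codes for VEGFR1, was nearly confined to endothelial-like cells, with 87.8% of its UMIs in the control library against 85.4% in the mutant one. Its level there was 650 [623, 677] and 713 [675, 752] CPM, 11.6-fold and 12.1-fold that of mural-like cells (55.9 and 58.8), the next class. It was 130-fold and 136-fold the level of progenitor-like cells (4.99 and 5.23). The step between endothelial-like and progenitor-like cells was thus far larger for Flt1 than for Kdr. A Flt1 UMI was seen in 72.7% of control and 86.6% of mutant endothelial-like cells, and in 36.5% and 40.0% after thinning to 1000 UMIs. The log2 ratio of Flt1 in endothelial-like cells was 0.13 [0.03, 0.23], 0.79 in cells of at most 2000 UMIs and -0.90 where cells were chosen by marker gates.

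RPE-like cells had 22 Flt1 UMIs in the control library against 1 in the mutant one (6.66 and 0.427 CPM), a log2 ratio of -3.96 [-9.33, -1.33]. The 22 UMIs came from 20 of 516 cells, none with more than 2. All 11 endothelial markers had UMIs in RPE-like cells of both libraries. Their summed level was 365 CPM in the control library against 76.5 in the mutant one. The sum was not split by marker, and the list holds Ramp2, which the study names among genes lower in the mutant RPE. The part of endothelial RNA in the Flt1 value was not tested.

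Flt4, which codes for VEGFR3, was like Flt1 nearly confined to endothelial-like cells, with 88.2% and 92.3% of its UMIs. Its level there was 84.4 [74.9, 94.9] and 77.5 [65.3, 91.3], from 283 and 143 UMIs, and no other class exceeded 6.43 in either library. Progenitor-like cells had 5 UMIs in the control library against 0 in the mutant one, where 3 UMIs would have been 0.145 CPM. A Flt4 UMI was seen in 32.3% and 40.2% of endothelial-like cells, and in 8% and 5.81% after thinning. The log2 ratio in endothelial-like cells was -0.12 [-0.42, 0.17], and over the alternatives it ran from -1.70 with marker gates to 1.60 in cells of at most 2000 UMIs. No lymphatic endothelial cluster was named. The 6 lymphatic markers summed to 237 CPM in control and 28.7 in mutant endothelial-like cells, which was not tested as a part of the Flt4 value. The same markers summed to 563 and 409 in RPE-like and 186 and 186 in progenitor-like cells, so the sum does not mark lymphatic cells alone.

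The receptors were counted together in single endothelial-like cells. Kdr and Flt1 were both seen in 61.5% [56.7, 66.2] of control and 80.5% [73.6, 86.3] of mutant endothelial-like cells, at least 1 receptor in 83.6% and 95.1%, and all 3 in 29.7% and 38.4%. These shares depend on depth, which was higher in the mutant. After thinning, both Kdr and Flt1 were seen in 18.1% and 22.6%, and any receptor in 61.3% and 71.0%.

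Endothelial-like cells were 421 of 12449 cells in the control (3.38%) and 164 of 10797 in the mutant (1.52%), a log2 ratio of -1.15 [-1.42, -0.89] that was -0.40 where cells were chosen by marker gates, -2.59 among Xist-only cells and -0.51 among Y-only cells. With the marker gates the receptor ratios were as large or larger (Kdr -0.72, Flt1 -0.90 and Flt4 -1.70). These gates leave out endothelial cells that also had at least 3 UMIs of progenitor markers. Those markers summed to 1230.5 and 1097.4 CPM in endothelial-like cells. The gated cells are thus a selected set, and their values do not settle the order of the differences in cell number and in receptor level. Endothelial-like cells held 4.87% and 2.87% of all UMIs. Other classes also had smaller shares of kept cells in the mutant, such as mesenchyme-like (16.4% and 8.42%), macrophage-like (2.11% and 0.63%) and RPE-like cells (4.14% and 1.91%). Mural-like (0.675% and 0.593%) and astrocyte-like cells (0.249% and 0.306%) had overlapping intervals. Progenitor-like cells rose from 25.4% to 35.7%, and the other named retinal classes also rose. The part of this shift in the endothelial-like share was not tested. Over all kept cells Flt1 went from 36.0 to 24.0 CPM, a log2 ratio of -0.59 [-0.68, -0.50], Flt4 from 4.67 to 2.41 (-0.95) and Pgf from 34.3 to 22.9 (-0.58). Kdr, most of which lay in the retina, had 139 and 144 (0.05), and Vegfb 79.7 and 77.8 (-0.04).

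The members were counted against all genes. A gene was counted as past the fold when its level differed by at least 1.5-fold in either direction with at least 20 UMIs over both libraries. In RPE-like cells 1 of 6 measured members was past it (Flt1, lower), where 21.7% of all 11138 genes were. In endothelial-like cells it was 1 of 7 (Pgf, higher), where 14.1% of all genes were. In neurogenic-like cells it was 1 of 4 (Pgf, lower, on 20 and 12 UMIs), where 9.08% were. None of 6 members was past it in progenitor-like cells (9.23% of all genes), none of 4 in photoreceptor-like cells (11% of all genes), none of 3 in amacrine-like cells (10.2% of all genes) and none of 6 in mesenchyme-like cells (8.69% of all genes). The median log2 ratio of the measured members was -0.40 in RPE-like, 0.00 in progenitor-like and 0.09 in endothelial-like cells, beside -0.02, 0.05 and -0.01 for all genes. Counting only genes of at least 100 UMIs, no member was past the fold in any of these classes, with 0 of 5 in RPE-like, 0 of 6 in endothelial-like and 0 of 3 in neurogenic-like cells. Members below 20 UMIs in a class were left out of these counts, among them Flt4 in every class but endothelial-like cells.

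**Figure D4:**
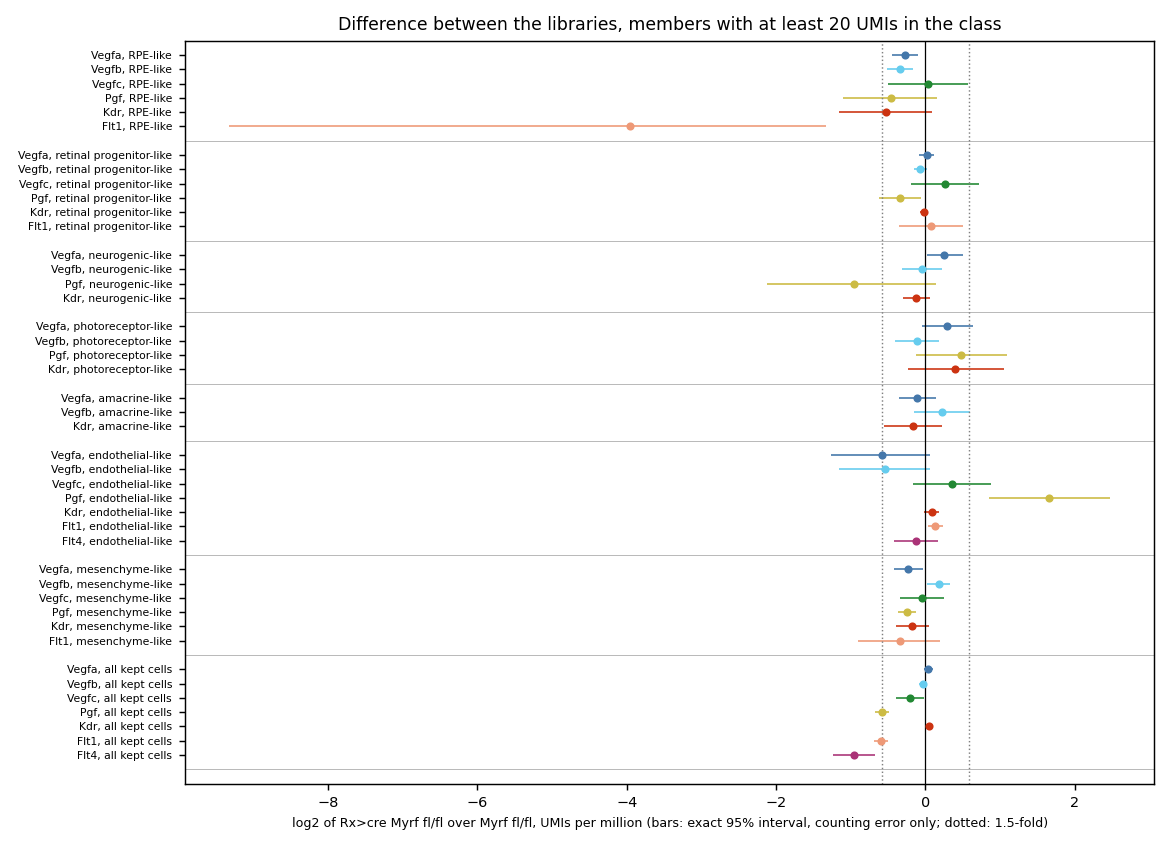
Log2 ratio of Rx>cre Myrf fl/fl over Myrf fl/fl (horizontal axis) for each member with at least 20 UMIs in a class, with exact 95% intervals for counting error as bars and dotted lines at 1.5-fold. Kdr and Vegfa in progenitor-like cells lie at -0.02 and 0.02, Flt1 in RPE-like cells at -3.96 and Pgf in endothelial-like cells at 1.65.

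Genes that act beside the members were counted in the same way, from lists of co-receptors (with the remaining ligand gene Vegfd), receptor signalling, tip cell genes, other vessel genes, inhibitors, HIF regulators and HIF targets. In endothelial-like cells, beside 14.1% of all genes, the co-receptors Nrp1 (253 and 223 CPM) and Nrp2 (125 and 186) were not past the fold, 0 of 2. Of the receptor signalling genes 2 of 9 were past it, the adaptor Shb higher (0.60) and the kinase Src lower (-1.19). Of the tip cell genes 2 of 9 were, Apln, a peptide ligand of sprouting endothelium, higher (45.4 and 92.7, log2 1.03 [0.71, 1.36]) and Kcne3 lower (-0.82). The tip cell markers Esm1 (0.16) and Dll4 (-0.06) were not, so the list did not move as a block. Other vessel genes had 1 of 11 (Hey2, lower, -1.34), and inhibitors 2 of 6, both lower, the thrombospondin Thbs2 (-3.07) and Serpinf1, which codes for PEDF (-1.46). Both are genes of connective tissue too, and the summed mesenchyme markers in endothelial-like cells were 1299 CPM in the control library against 183 in the mutant one, whose part in these values was not tested. HIF regulators had 1 of 10 (Egln3, 0.64) and HIF targets 2 of 15, Adm, which codes for the vasodilator adrenomedullin (26.3 and 53.7, log2 1.03), and Ankrd37 (0.82), both higher.

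In RPE-like cells, beside 21.7% of all genes, the co-receptors went apart, with Nrp1 higher (0.82), Nrp2 lower (-1.62) and 2 of 3 past the fold. None of 7 receptor signalling genes was past it. Of the inhibitors 3 of 5 were, all lower, among them Timp3, a matrix protein gene strongly expressed by the RPE whose product can block VEGFR2 (911 and 414 CPM, log2 -1.14), Col18a1, the source of endostatin (417 and 165, -1.33), and Thbs2 (-1.23). Thbs1 (687 and 592) and Serpinf1 (55.4 and 37.6) were not past the fold. The tip cell list had 1 of 2 (Pdgfb, lower, -1.22), and other vessel genes had 2 of 8, Hey1 higher (0.81) and Eng lower (-1.02). HIF regulators had 2 of 10, both higher, Hif1a (166 and 291, log2 0.81) and Egln3 (1.12). HIF targets had 4 of 13, with the glycolytic genes Ldha (449 and 964, 1.10) and Pgk1 (530 and 1055, 0.99) and the mitophagy gene Bnip3 (0.80) higher and Ddit4 lower (-0.77). Vegfa, itself a HIF target, was at -0.27 in the same cells. The summed mesenchyme markers in RPE-like cells were 2751 in the control library against 351 in the mutant one.

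In retinal progenitor-like cells, beside 9.23% of all genes, the co-receptors had 0 of 2 past the fold and HIF regulators 0 of 10. Receptor signalling had 1 of 8, the endothelial phosphatase gene Ptprb (lower, -2.01). Tip cell genes had 1 of 7 (Apln, higher, 0.86), and other vessel genes 2 of 9, Angpt1 and Eng, both lower. Inhibitors had 3 of 7, all lower, with Thbs2 at -2.77, Thbs1 at -1.57 and the semaphorin gene Sema3a at -0.62. HIF targets had 3 of 16, all higher, with Aldoa (250 and 483 CPM) at 0.95, Bnip3 at 0.75 and Pgk1 at 0.68. The summed mesenchyme markers in these cells were 1378 in the control library against 231 in the mutant one, and their part in the inhibitor values was not tested.

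The genes whose levels followed a member most closely over the classes were found from 28 profiles, 15 classes in the libraries where they had enough cells, over 13569 genes on the log2(CPM + 1) scale. These correlations are descriptions over points that share 2 libraries and differ in depth and class size. For Flt1 the closest were the endothelial genes Gimap6 (r = 0.948), Esam (0.944), Tie1 (0.942), Cd93 (0.924) and Pcdh12 (0.913). For Flt4 they were Abcb1a (0.950), which codes for an efflux pump of the blood-brain barrier, Adgrf5 (0.910), Scarf1 (0.909), Gpr4 (0.884) and Apln (0.877). For Kdr they were Gm9889 (0.817), Pkn3 (0.815), Ptpru (0.796), Adgrg1 (0.788) and Tmem255a (0.781), and none of the 5 genes closest to Flt1 or Flt4 was among them. For Vegfa they were Sall2 (0.871), Tspan3 (0.834), Haghl (0.833), Ndn and Nt5dc2 (both 0.825).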

How the data were processed

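Eye cups of Rx>cre Myrf fl/fl mice and their Myrf fl/fl controls were dissociated with papain and captured by 10x 3′ chemistry, 1 library per genotype from 3 pooled eye cups. The deposited count tables give, for every gene and barcode, the raw count of UMIs, made by the authors with Cell Ranger. The submitters' processing notes name Cell Ranger 7.1.0, Seurat 4.1.1 and mm10, while the header of the count tables gives software version 3.1.0. The numbers of barcodes in the tables, 14305 and 12222, are those the study states as cells. Totals were 79017429 and 76272867 UMIs.

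Barcodes with at least 200 genes and at most 15% mitochondrial UMIs were kept. Scrublet scores (scanpy 1.11.5) were cut at the expected rate of 0.8% per 1000 barcodes, which removed 1682 and 1230 cells, because the threshold it set itself marked 0% of the barcodes in the control and 5.48% in the mutant. Cells were clustered in Seurat 5.3.0 (R 4.3.3) on 1969 variable genes, 30 components and resolution 1, with 79 genes (the members, the pathway lists and sex-linked genes) kept out. A cluster was named from fixed markers, at least 3 of which had to be enriched. The members, markers and lists were chosen with earlier results of these data known.

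UMIs were summed per class and library and given as CPM (UMIs per 1000000 UMIs). Levels have exact Poisson intervals, ratios exact conditional binomial intervals and shares Clopper-Pearson intervals (95%, scipy 1.17.1). They cover counting error only, and UMIs of 1 cell are not independent. With 1 library per genotype there are no tests across samples. The interval code was tested on simulated data. Named were all members, the 5 genes closest to Vegfa, Kdr, Flt1 and Flt4 by Pearson correlation, and from each list the genes with the largest fold in each direction, beside others of the list for contrast. Alternatives changed doublet handling, mitochondrial and depth limits, thinning to 1000 UMIs, the weight of cells, scaling (TMM, edgeR 4.0.16), resolution, class rule and sex of the cells. Promoters are from RefSeq (GRCm38.p6), in which all 7 members matched.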

Additional observations from a re-analysis of the deposited data

Results flagged for a closer look

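The Pgf ratios of 2 classes lay on opposite sides of 0. In endothelial-like cells the log2 ratio of Rx>cre Myrf fl/fl over Myrf fl/fl was 1.65, and in macrophage-like cells it was -3.83. The intervals, [0.86, 2.48] and [-9.17, -1.26], cover counting error only, each genotype is 1 library, and the difference between the classes was not tested. In both classes few cells held the UMIs. The 5 highest endothelial-like cells held 86.4% of the control and 76.3% of the mutant UMIs, and the 5 highest macrophage-like cells held 60.5% of the control UMIs.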

How the results depend on the processing

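Of the recomputed values of the main results, 59 stayed within the counting interval and 33 moved. For ratios, moved means beyond the counting interval. The shares of all genes past 1.5-fold have no such interval, so for them moved means a change of the percentage past 1.5-fold, and all of them moved. No ratio past 1.5-fold for which alternatives were run changed its sign. They were run for RPE-like, retinal, endothelial-like and mesenchyme-like cells and in small part for astrocyte-like cells, and not for other classes, all kept cells, single clusters or the pathway lists. Vegfa in RPE-like cells (log2 -0.27) was -0.08 in cells of at most 2000 UMIs, -0.03 as a mean over cells and -0.48 in Xist-only cells, and marker gates gave no value. Vegfa in progenitor-like cells (0.02) was 1.49 in cells of at most 2000 UMIs, 1.15 in Xist-only cells and -0.25 in cells with Y-linked reads only. Kdr in endothelial-like cells (0.09) was 0.80 in cells of at most 2000 UMIs, 0.48 after thinning, 0.42 as a mean over cells, 0.28 in Xist-only cells and -0.72 with marker gates. Flt1 there (0.13) was 0.79, 0.29 and -0.90 in cells of at most 2000 UMIs, as a mean over cells and with marker gates. Kdr in progenitor-like cells (-0.02) was 0.83 in cells of at most 2000 UMIs, 0.07 in Xist-only cells and -0.10 in cells with Y-linked reads. The control ratio of Vegfa between RPE-like and progenitor-like cells (1.40) was 0.81 at a mitochondrial limit of 5%, 1.02 in cells of at most 2000 UMIs, 1.00 after thinning, 0.88 as a mean over cells, 0.84 with marker gates and 2.75 in Xist-only cells. The endothelial-like share (-1.15) was -0.40 with marker gates, -2.59 in Xist-only cells and -0.51 in cells with Y-linked reads. Counting only genes of at least 100 UMIs, the shares of all genes past 1.5-fold were 14.4% in RPE-like, 4.73% in endothelial-like, 3.36% in mesenchyme-like, 3.1% in photoreceptor-like, 3.5% in progenitor-like, 3.16% in amacrine-like and 2.82% in neurogenic-like cells. At this limit no member was past the fold, 0 of 5 in RPE-like, 0 of 6 in endothelial-like and 0 of 3 in neurogenic-like cells. Among other members, Vegfc in endothelial-like cells ran from -2.18 to 0.45, Flt4 there from -1.70 to 1.60 and Vegfb in RPE-like cells from -0.46 to 1.14. The causes were not tested.

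Leaving out the highest cell of a gene, the sex split of astrocyte-like cells and leaving out cluster 17 were chosen after seeing the data. Marker gates leave out cells that meet more than 1 rule. Low members (Flt4 outside vessels, Pgf in blood and immune cells) rest on few UMIs. No paired analysis was possible because each genotype is 1 library and no test was made.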

Other observations

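An unnamed cluster of shallow cells, cluster 4, had Vegfa and Kdr UMIs at levels set beside 64.2 and 65.9 CPM of Vegfa and 139 and 144 of Kdr over all kept cells. It was led by Gm26870, Ttn and lens crystallin genes, with 808 control and 273 mutant cells of median depth 1032 and 801 UMIs. Its Vegfa level was 92.9 [77.4, 111] CPM in the control library against 159 [120, 207] in the mutant one, and its Kdr level 176 [154, 199] and 252 [202, 311]. Thinned to 1000 UMIs, 14.9% of control and 30.8% of mutant cells of the cluster had a Kdr UMI, with 379 of 808 and 169 of 273 shallower cells left out.

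Surface epithelium-like cells had 15.2 Kdr CPM in the control library against 36.3 in the mutant one, a log2 ratio of 1.26 [0.37, 2.20], but the thinned shares of cells with a Kdr UMI were 4.92% and 2.99%. Pgf in the same class had 11 UMIs in the control library against 0 in the mutant one.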
